A study of Mus musculus with 14 samples.

Results

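The 9 genes described here encode enzymes of the tricarboxylic acid cycle: Cs, Idh3a, Idh3b, Idh3g, Ogdh, Dlst, Suclg1, Fh1 and Mdh2. They were chosen by gene name, and each was found in 1 row of the deposited table, out of 54955 gene symbols or unnamed identifiers in all. All 9 were among the 14719 genes with enough signal to be tested. The samples are adipose tissue from C57BL/6 mice aged 21 weeks, 7 of them wild type (WT, replicates 3 to 9) and 7 labelled as knockout for Dectin-1 (KO, replicates 1 to 7), the myeloid β-glucan receptor encoded by Clec7a. No treatment is given for either group, and neither the fat depot, the targeted exons nor the cells in which the allele was deleted are stated in the labels. Values are in TPM, a share of transcripts per library corrected for gene length, so levels can be set side by side between genes.

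The cycle oxidises acetyl-CoA in the mitochondrial matrix and passes the electrons to the respiratory chain as NADH and FADH2. In white fat it also supplies citrate, which leaves the mitochondrion and is split in the cytosol to acetyl-CoA for fatty acid synthesis. Several of its steps are carried out by complexes of different subunits, among them the NAD-dependent isocitrate dehydrogenase, the 2-oxoglutarate dehydrogenase complex and succinyl-CoA ligase.

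Some features of the whole series bear on these genes. Clec7a was measured in every library labelled KO, from 4.02 to 10.5 TPM (median 6.33), and from 4.1 to 18.9 TPM (median 12.5) in WT, so the groups overlapped for the targeted gene. A gene-level value does not show whether the deleted exons were read. Each direction below is therefore that of the libraries so labelled. The 10 adipocyte markers, Adipoq and Plin1 among them, summed to between 14671 and 67219 TPM, as fits the labelled tissue. The pieces differed in what else they held. The 6 B-cell markers summed to 2.12 to 1282 TPM in WT and 6.07 to 1742 TPM in KO, and KO replicate 7, WT replicate 4 and WT replicate 7 stood apart with Cd79a, a B-cell receptor subunit, at 0.62 to 1.52 TPM. The 10 skeletal muscle markers summed to 28.8 to 24904 TPM in WT and 18.1 to 7984 TPM in KO. Between the groups, 9 of 10 adipocyte markers, 9 of 9 muscle markers tested and 6 of 6 macrophage markers had log2 fold changes below 0 (medians -0.55, -1.76 and -0.50), and 6 of 6 B-cell and 6 of 6 T-cell markers above 0 (medians 1.23 and 0.97), with 0 of these passing the test (limma, adjusted over all genes). The macrophage markers summed to 71.5 to 118 TPM in KO and 63.5 to 232 TPM in WT, and the T-cell markers to 21.2 to 810 and 5.56 to 820 TPM. The part of macrophage and T-cell content in the results on the enzymes was not tested. Ucp1, the uncoupling protein of brown and beige fat, stood between 0 and 5.16 TPM. Depth is unknown because TPM keeps no read numbers. In tissue RNA, fewer cells of a type and less RNA per cell cannot be told apart.

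All 9 enzymes were abundant transcripts. Their share of a library's TPM was 0.134% ± 0.038 over the KO libraries and 0.147% ± 0.016 over the WT libraries (SD, n = 7 each). Mdh2, the mitochondrial malate dehydrogenase that regenerates oxaloacetate, was the highest at 323 ± 75 TPM over the 14 libraries (SD), above 97.5% of the genes tested. Fh1, the fumarase that hydrates fumarate to malate, was the lowest at 87.7 ± 18.9 TPM and still above 91.1% of them. Idh3g followed Mdh2 at 218 ± 44 TPM, then Cs at 206 ± 55, Idh3b at 167 ± 35, Idh3a at 105 ± 30, Suclg1 at 102 ± 21, Ogdh at 99.0 ± 21.2 and Dlst at 98.5 ± 15.8 TPM. Neighbours in this order were compared within libraries with a 2-sided exact sign-flip permutation test over the 14 libraries, adjusted over the 8 neighbouring pairs. The order was set from the means of these same libraries, so p shows only how steadily neighbours kept it between libraries. An error in a gene's value that repeats in every library cannot be seen by this test. Mdh2 exceeded Idh3g by a factor of 1.47, Cs exceeded Idh3b by 1.22 and Idh3b exceeded Idh3a by 1.61, each in 14 of 14 libraries (exact sign-flip permutation, adjusted p = 0.000326 for each, from the smallest p that 14 libraries allow). Dlst exceeded Fh1 by a factor of 1.13 over the pooled groups (exact sign-flip permutation, adjusted p = 0.0142). It did so in 9 of 14 libraries, 6 of 7 KO but only 3 of 7 WT. The remaining neighbours did not differ beyond their spread over the pooled groups: Idh3g and Cs (adjusted p = 0.289), Idh3a and Suclg1 (0.783), Suclg1 and Ogdh (0.634), and Ogdh and Dlst (0.811, exact sign-flip permutation for all 4). Their order was not the same in both groups. Idh3g exceeded Cs in 7 WT and 3 KO libraries, and Idh3a exceeded Suclg1 in 2 and 6. Suclg1 exceeded Ogdh in 6 WT and 1 KO libraries, and Ogdh exceeded Dlst in 5 and 1. Of these pairs, only Ogdh and Dlst were compared between the groups, as a ratio below.

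**Figure D1:**
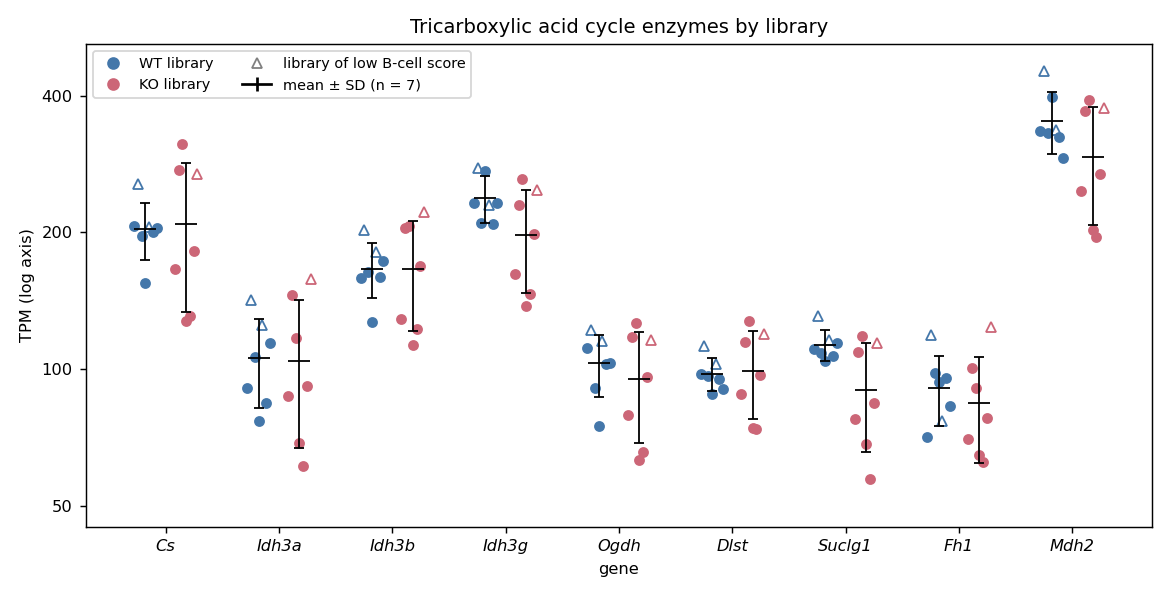
TPM of the 9 enzymes (log axis) in each library, WT in blue and KO in red, with the mean ± SD of 7 libraries in black. Open triangles mark KO replicate 7, WT replicate 4 and WT replicate 7, the libraries of low B-cell score. The groups overlap for every gene, and KO libraries spread more widely than WT libraries.

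None of the 9 enzymes passed the test between KO and WT (limma-trend on log2(TPM + 1), Benjamini-Hochberg over 14719 genes, threshold 0.05). The same test called 3 of all genes tested, or 0.0204%, all lower in KO: Dynlt1b, Lgals3bp and Nnt, the mitochondrial transhydrogenase that makes NADPH from NADH. The cause of these 3 calls was not tested. The smallest adjusted p among the enzymes was 0.408, that of Suclg1. At an unadjusted p under 0.05, 1 of the 9 was lower in KO (Suclg1), where 6.74% of all genes tested were. The groups overlapped for all 9, and they did not overlap for 0.319% of the genes tested. The log2 fold change was below 0 for 9 of 9, with a median of -0.13, where the median of all genes tested was 0.04 and 45.4% lay below 0. That shared sign held with other pseudocounts and filters, rows as deposited, median-ratio scaling, library weights and the replicate block. It also held without any 1 of KO replicates 2, 3, 6 and 7 or WT replicates 3, 5, 6, 8 and 9. It did not hold under the settings that follow. After quantile normalization 5 of 9 were below 0, and 6 of 9 with TPM rescaled without mitochondrially encoded genes. With a marker score as a covariate it was 3 of 9 (adipocyte), 5 of 9 (B-cell) and 6 of 9 (muscle). It was 5 of 9 without KO replicate 4, KO replicate 5 or WT replicate 4, 6 of 9 without KO replicate 1, and 8 of 9 without WT replicate 7, without the 3 libraries of low B-cell score, or with each library's length trend removed. For Cs, Idh3b and Dlst the mean TPM was higher in KO while the mean of the log2 values was lower.

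**Figure D2:**
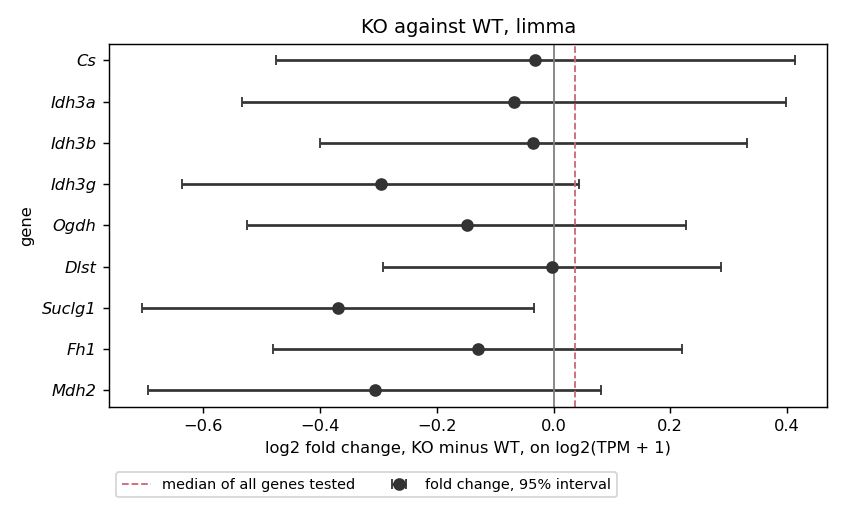
Log2 fold change of each enzyme, KO minus WT in units of log2(TPM + 1), with limma's 95% interval and a dashed line at the median of all genes tested, 0.04. The interval spans 0 for 8 of 9 enzymes, Suclg1 being the exception before adjustment, and none passed after adjustment over all genes.

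Cs (ENSMUSG00000005683) encodes citrate synthase, which joins acetyl-CoA to oxaloacetate at the entry of the cycle. Its level in KO ran from 127 TPM (replicate 4) through a median of 182 to 313 TPM (replicate 3), and in WT from 155 (replicate 6) through 205 to 256 TPM (replicate 4). The KO libraries lay on both sides of the WT range, 2 below it and 3 above it. Its log2 fold change of -0.03 ± 0.21 (SE) had a 95% interval from -0.48 to 0.41 (limma, adjusted p = 0.953), so changes by a factor of 0.72 to 1.33 were within the error.

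Idh3a, Idh3b and Idh3g encode the subunits of the NAD-dependent isocitrate dehydrogenase, which oxidises isocitrate to 2-oxoglutarate. Idh3a (ENSMUSG00000032279), the catalytic α subunit, stood at 61.2 to 158 TPM in KO (median 92.0) and at 77.0 to 142 TPM in WT (median 107). Its log2 fold change was -0.07 ± 0.22 (SE; limma, adjusted p = 0.902). Idh3b (ENSMUSG00000027406), the β subunit, stood at 113 to 222 TPM in KO (median 168) and at 127 to 203 TPM in WT (median 164), a log2 fold change of -0.03 ± 0.17 (limma, adjusted p = 0.938). For both subunits the KO range enclosed the WT range. Idh3g (ENSMUSG00000002010), the γ subunit, stood at 138 to 262 TPM in KO (median 199) and at 209 to 278 TPM in WT (median 232). Here 4 of 7 KO libraries lay below the lowest WT library and 0 above the highest. The log2 fold change was -0.30 ± 0.16 (limma, adjusted p = 0.489).

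Ogdh and Dlst encode the E1 and E2 components of the 2-oxoglutarate dehydrogenase complex, which makes succinyl-CoA. Ogdh (ENSMUSG00000020456) stood at 63.2 to 127 TPM in KO (median 96.4) and at 74.9 to 122 TPM in WT (median 103), with a log2 fold change of -0.15 ± 0.18 (SE; limma, adjusted p = 0.730). Dlst (ENSMUSG00000004789) stood at 73.9 to 128 TPM in KO (median 97.0) and at 88.3 to 113 TPM in WT (median 96.9). Its log2 fold change was the nearest to 0 of the 9, at -0.0024 ± 0.14, its 95% interval reaching from -0.29 to 0.29 (limma, adjusted p = 0.994). In Dlst 3 KO libraries lay below the WT range and 3 above it.

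Suclg1 (ENSMUSG00000052738) encodes the α subunit of succinyl-CoA ligase, which turns succinyl-CoA into succinate with the formation of a nucleoside triphosphate. It stood at 57.3 to 118 TPM in KO (median 84.1) and at 104 to 131 TPM in WT (median 111). The lowest 4 KO libraries lay below every WT library, and the other 3 lay within the WT range. This was the enzyme with the most negative log2 fold change, -0.37 ± 0.16 (SE), its 95% interval reaching from -0.71 to -0.03 (limma, unadjusted p = 0.0331, adjusted p = 0.408; exact permutation p = 0.0437).

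Fh1 and Mdh2 close the cycle. Fh1 (ENSMUSG00000026526) stood at 62.5 to 124 TPM in KO (median 78.2) and at 70.8 to 119 TPM in WT (median 93.9), with a log2 fold change of -0.13 ± 0.16 (SE; limma, adjusted p = 0.741). Mdh2 (ENSMUSG00000019179) stood at 196 to 392 TPM in KO (median 268) and at 291 to 453 TPM in WT (median 334). In Mdh2 4 of 7 KO libraries lay below the WT range and 0 above it, and the log2 fold change was -0.31 ± 0.18 (limma, adjusted p = 0.532).

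The enzymes rose and fell together from library to library. Over the 14 libraries Pearson's r between 2 of them, across the 36 pairs, ran from 0.62 (Ogdh and Fh1) through a median of 0.80 to 0.97 (Cs and Dlst), as a description of libraries that share tissue composition and the fixed TPM total. Within KO the 36 values ran from 0.88 to 0.995 (n = 7), and within WT from -0.08 to 0.95 (n = 7). The difference between the groups in these values was not tested. KO replicates 2, 3 and 7 had 9 of 9 enzymes above their mean over all libraries, and KO replicates 1, 4 and 5 had 0 of 9. The lowest KO library was replicate 4 for 4 enzymes and replicate 5 for the other 5. In WT, replicate 4 was the highest library for 9 of 9 enzymes, and replicate 6 was the lowest for 6 of 9. The coefficient of variation was larger in KO for 9 of 9 enzymes. It lay between 21.9% (Dlst) and 36.1% (Cs) in KO, and between 7.90% (Suclg1) and 22.1% (Idh3a) in WT. The difference in spread was not tested.

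The level of adipocyte markers was correlated with the levels of 5 of the 9 enzymes by Pearson's r, while 0 passed by Spearman's rho. The part of adipocyte markers in the group values was examined only with the score as a covariate, as above. Each marker list was reduced to a score per library, the average of log2(TPM + 1) over its genes. The adipocyte score averaged 9.95 ± 0.80 over KO libraries and 10.5 ± 0.4 over WT libraries (SD, n = 7 each). The lowest adipocyte scores of all were those of KO replicates 4 and 5, at 8.72 and 9.31, the same libraries in which the enzymes were lowest. Because 3 libraries formed a separate cluster by B-cell markers, correlations with 3 scores were computed over the other 11, 27 correlations in all, with permutation tests (100000 resamples, 2-sided, Benjamini-Hochberg over the 27). With the adipocyte score, Pearson's r was 0.87 for Idh3g, 0.85 for Mdh2, 0.84 for Suclg1, 0.76 for Fh1 and 0.72 for Ogdh, which passed (permutation, adjusted p = 0.0127, 0.0127, 0.0240, 0.0331 and 0.0450). For Cs, Idh3a, Idh3b and Dlst r lay between 0.66 and 0.71 and did not pass (permutation, adjusted p = 0.0564 to 0.0691). Spearman's rho lay between 0.50 and 0.77, and 0 of 27 passed by rho (permutation, smallest adjusted p = 0.0990). Without KO replicates 4 and 5, the 2 libraries farthest from the median score, r was 0.67 for Suclg1, 0.65 for Idh3g, 0.62 for Mdh2 and 0.50 for Fh1. For Ogdh it was 0.26, and that relation rested on those libraries. For the enzymes that had not passed it lay between 0.21 (Dlst) and 0.36 (Cs). Within the 6 KO libraries of this set r lay between 0.83 and 0.90. After each group's mean was removed, it lay between 0.70 and 0.83 over the 11.

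No correlation with the muscle markers passed. Muscle is rich in these enzymes, and the muscle score ran from 1.06 to 10.3. With that score r lay between 0.11 (Fh1) and 0.38 (Ogdh), and 0 of 9 passed (permutation, adjusted p = 0.346 to 0.741). Spearman's rho with it lay between 0.06 and 0.45. Without KO replicates 5 and 6 r lay between -0.09 and 0.26. With the B-cell score r lay between -0.73 (Fh1) and -0.39 (Ogdh). Fh1 passed by r (permutation, adjusted p = 0.0450) but not by rho, which was -0.76 (permutation, adjusted p = 0.0990), and its r was -0.60 without KO replicates 2 and 4. In the 3 libraries of low B-cell score Mdh2 stood at 375 TPM (KO replicate 7), 453 TPM (WT replicate 4) and 337 TPM (WT replicate 7), and Cs at 269, 256 and 205 TPM. The adipocyte scores of these libraries were the highest of the 14, at 11.1, 10.95 and 11.05.

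**Figure D3:**
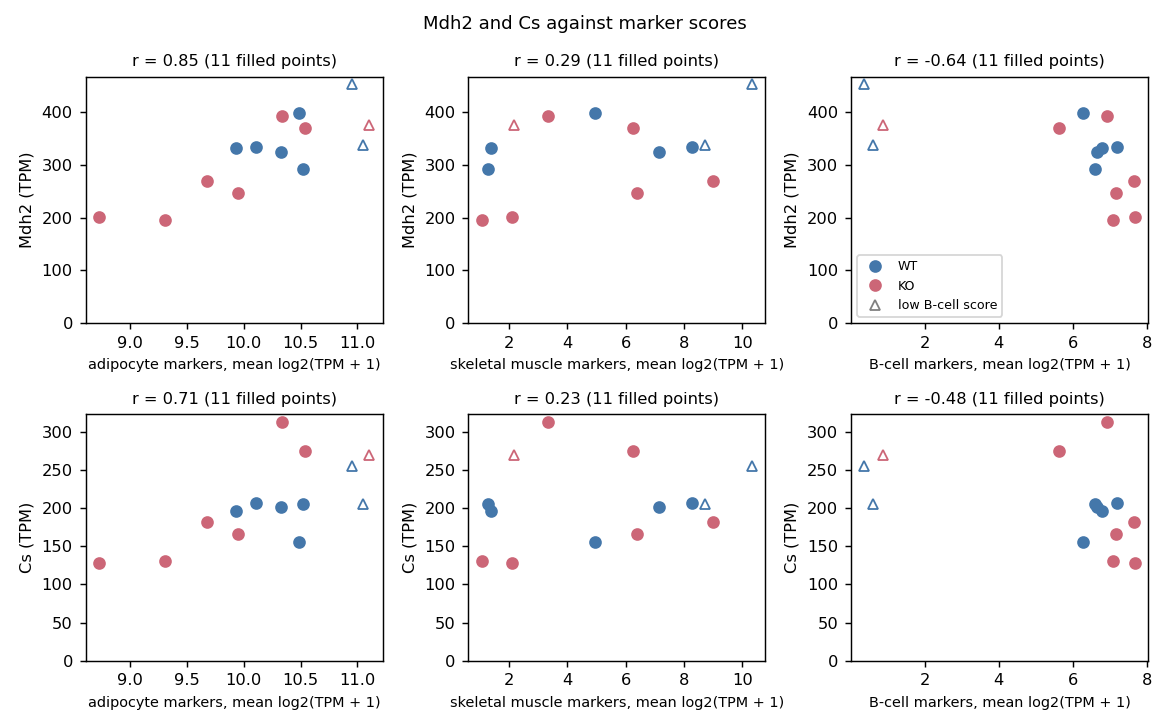
TPM of Mdh2 (top) and Cs (bottom) in each library against the adipocyte, skeletal muscle and B-cell marker scores (mean log2(TPM + 1)), WT blue and KO red. Open triangles are the 3 libraries of low B-cell score, left out of r. Both genes are lowest in the KO libraries of lowest adipocyte score, with r = 0.85 for Mdh2 and 0.71 for Cs over 11 libraries.

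Genes with patterns most like that of the 9 were then listed. Likeness was Pearson's r with the mean of the 9 standardised log2 values over the 14 libraries, given as a description of the closest genes outside the 9. Among them were Pmpcb, a subunit of the mitochondrial processing peptidase (0.98), Agpat3, an acyltransferase of phospholipid synthesis (0.97), Sod2, the mitochondrial superoxide dismutase (0.96), and Mdh1, the cytosolic malate dehydrogenase (0.96). Others were Slc2a4, the insulin-responsive glucose transporter (0.96), Gpd1, a glycerol-3-phosphate dehydrogenase (0.96), and Unc5a (0.96). Over the 11 libraries of higher B-cell score Pmpcb and Gpd1 each had r = 0.98.

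The proportions between the enzymes were compared as ratios of TPM within each library, which scaling a whole library by 1 factor cannot change. Of 9 ratios tested, 8 are given here, and 3 of these 8 differed between the groups (2-sided exact permutation tests on log2 ratios over 3432 arrangements, Benjamini-Hochberg over the 9). Whether they move with tissue composition was not tested beyond leaving out the 3 libraries of low B-cell score. The ratios were chosen with earlier results of these data known, which the adjustment over the 9 does not cover. The share of other gene pairs whose ratio would pass is not given here, so the count cannot be set against it. Of the cycle's complexes, the isocitrate dehydrogenase and succinyl-CoA ligase had subunit ratios that differed. Those of the 2-oxoglutarate dehydrogenase complex did not pass.

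Idh3g relative to Idh3b was lower in KO. The ratio ran from 1.12 (replicate 7) through a median of 1.20 to 1.27 (replicate 3) in KO, and from 1.26 (replicate 7) through 1.34 to 2.16 (replicate 6) in WT. In 6 of 7 KO libraries it was below every WT library, with KO replicate 3 just inside the WT range. The log2 difference was -0.26 ± 0.11 (SE, n = 7 each; exact permutation, adjusted p = 0.0105). WT replicate 6 decided part of its size: without it the difference was -0.16 (exact permutation, adjusted p = 0.0197). Idh3a relative to Idh3b averaged 0.618 ± 0.085 (KO) and 0.630 ± 0.063 (WT; SD, n = 7 each), a log2 difference of -0.03 ± 0.09 (SE; exact permutation, adjusted p = 0.727).

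Succinyl-CoA ligase pairs Suclg1 with a β subunit, either Sucla2 for the ATP-forming enzyme or Suclg2 for the GTP-forming one. Suclg1 relative to the sum of both β subunits ran from 0.660 through 0.757 to 0.984 in KO and from 0.863 through 0.954 to 1.09 in WT. All KO libraries except replicate 3 lay below every WT library. The log2 difference was -0.32 ± 0.09 (SE, n = 7 each; exact permutation, adjusted p = 0.0122). Between the β subunits, Suclg2 relative to Sucla2 ran from 0.408 through 0.499 to 0.598 in KO and from 0.543 through 0.623 to 0.702 in WT, a log2 difference of -0.30 ± 0.09 (exact permutation, adjusted p = 0.0122). Sucla2 was the more abundant β subunit in both groups, with means of 77.9 ± 25.8 TPM (KO) and 73.1 ± 14.4 TPM (WT), beside 38.3 ± 8.1 and 44.8 ± 5.4 TPM for Suclg2 (SD over 7 libraries). Neither β subunit passed in level (limma, adjusted p = 0.915 and 0.514). These 2 ratios share their β subunits and are not independent of each other.

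Without the 3 libraries of low B-cell score these 3 ratios passed as well (adjusted p = 0.0195 for Idh3g to Idh3b and 0.0390 for both succinyl-CoA ligase ratios, exact permutation).

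The other ratios given here did not pass. Ogdh relative to Dlst averaged 0.946 ± 0.066 over KO and 1.05 ± 0.11 over WT libraries (exact permutation, adjusted p = 0.126; n = 7 each). Its log2 difference was -0.15, and without WT replicate 6 it was -0.20 and passed (exact permutation, adjusted p = 0.0197). Ogdh relative to Dld, the E3 component that the complex shares with pyruvate dehydrogenase, was 1.27 ± 0.27 against 1.46 ± 0.25 (exact permutation, adjusted p = 0.212; n = 7 each). Fh1 relative to Mdh2 was 0.292 ± 0.034 against 0.259 ± 0.034 (exact permutation, adjusted p = 0.151; n = 7 each). Mdh2 relative to its cytosolic counterpart Mdh1 was 1.01 ± 0.12 against 1.07 ± 0.22 (exact permutation, adjusted p = 0.659; n = 7 each).

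**Figure D4:**
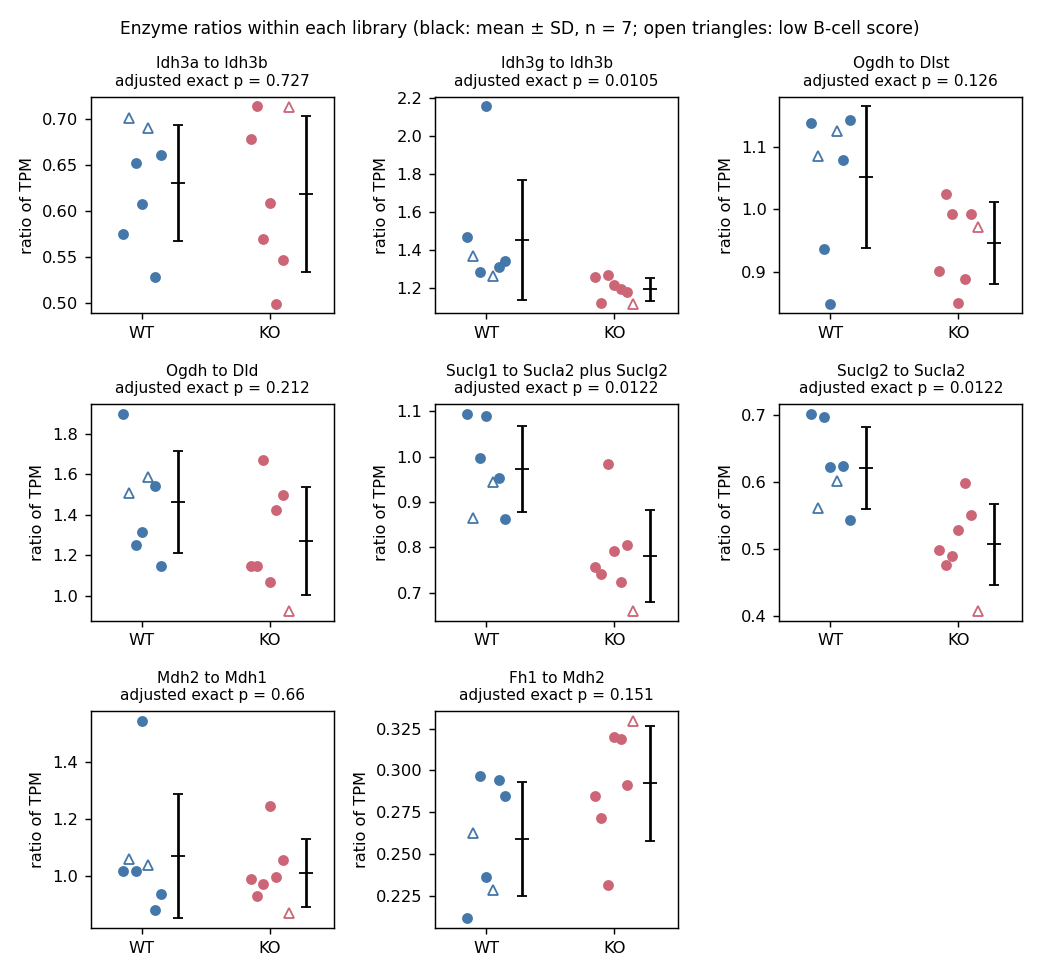
Ratio of TPM between enzymes in each library for 8 ratios, WT blue and KO red, with mean ± SD of 7 libraries in black and the adjusted exact permutation p above each panel. The ratios Idh3g to Idh3b, Suclg1 to its β subunits and Suclg2 to Sucla2 are lower in KO. WT replicate 6 stands alone at 2.16 in the panel of Idh3g to Idh3b.

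A length-related shift was present in the library that stood apart in these ratios. Across the genes tested, Spearman's rho between a gene's deviation from its mean and its model length was -0.41 in WT replicate 6 and between -0.16 and 0.20 in the other 13 libraries. The models of Idh3g (1331 bases), Mdh2 (1456) and Suclg1 (1519) are the shortest of the 9, and their log2 fold changes were the most negative. These values stayed the most negative with each library's length trend removed, at -0.26, -0.27 and -0.34. Idh3b, the next shortest (1616 bases), had a log2 fold change of -0.03 before that removal. Over all genes tested the median log2 fold change rose with model length from 1000 bases up. The 9 models, of 1331 to 4075 bases, lie in that range. The median broke this order under 1000 bases. It was 0.07 under 1000 bases (2126 genes), -0.04 from 1000 to 1500 (1617 genes) and -0.01 from 1500 to 2000 (1818 genes). In longer models it was 0.02 from 2000 to 3000 bases (3233 genes), 0.04 from 3000 to 4500 (3127 genes) and 0.11 at 4500 or more (2798 genes). With each library's length trend removed, the differences were -0.25 for Idh3g to Idh3b, -0.30 for Suclg1 to its β subunits and -0.36 for Suclg2 to Sucla2 (exact permutation, adjusted p = 0.0126 for each). The ratio Ogdh to Dlst then also passed, at -0.20 (exact permutation, adjusted p = 0.0126), and 0 of the 9 enzymes passed in level.

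Genes that work with the 9 enzymes showed no called change either (limma, adjusted over all genes tested). At an unadjusted p under 0.05, 1 cycle partner, 2 genes of pyruvate entry and 1 cytosolic counterpart were lower and 1 regulator was higher, where 6.74% of all genes tested were lower and 4.67% higher. Of 11 partners in the cycle, Ogdhl, a paralogue of Ogdh, was too low to be tested (0.36 TPM or less in WT and 0.15 or less in KO), and 0 of the other 10 passed, with 8 below 0 and 2 above (median log2 fold change -0.15). Idh2, the NADP-dependent isocitrate dehydrogenase of mitochondria, had the smallest p of them, with 75.3 to 176 TPM in KO (median 109) and 118 to 196 TPM in WT (median 148). Its log2 fold change was -0.41 ± 0.19 (SE; limma, adjusted p = 0.425). The succinate dehydrogenase subunits Sdha, Sdhb, Sdhc and Sdhd had log2 fold changes of -0.15, -0.20, -0.13 and -0.02.

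Of 13 genes that admit pyruvate to the cycle 0 passed, with 9 below 0 and 4 above (median -0.09). Pdk4 and Pdk2 encode kinases that switch pyruvate dehydrogenase off. Pdk4 stood at 3.74 to 14.6 TPM in KO (median 7.40) and at 8.67 to 24.2 TPM in WT (median 11.5; log2 fold change -0.76 ± 0.28, limma adjusted p = 0.342). Pdk2 averaged 43.6 ± 14.8 TPM in KO and 66.2 ± 23.6 TPM in WT (SD over 7 libraries), with an adjusted p of 0.408 by limma. Pdhb and Pdk1 had values of the opposite sign, with log2 fold changes of 0.32 ± 0.26 and 0.23 ± 0.22.

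Of 15 genes of anaplerosis and export 0 passed, with 10 below 0 and 5 above (median -0.15). Glud1, glutamate dehydrogenase, had a log2 fold change of -0.27 ± 0.15. Acly, which splits exported citrate, ranged from 69.7 to 796 TPM in KO and from 45.8 to 237 TPM in WT (log2 fold change 0.64 ± 0.53, limma adjusted p = 0.647). Pcx, pyruvate carboxylase, and Slc25a10, a dicarboxylate carrier, had values of -0.39 ± 0.36 and -0.40 ± 0.32. All 4 cytosolic counterparts lay below 0 (median -0.32) and 0 passed. Idh1 averaged 91.3 ± 36.6 TPM in KO and 125 ± 25 TPM in WT (limma adjusted p = 0.416), and Aco1, Mdh1 and Got1 had log2 fold changes of -0.41, -0.23 and -0.20.

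Of 7 genes of lipoylation and succinate dehydrogenase assembly 0 passed (5 below 0, 2 above, median -0.03), with Sdhaf4 at -0.16 ± 0.12, Sdhaf2 at 0.13 ± 0.12, Lipt2 at -0.13 ± 0.23 and Lias, the lipoic acid synthase, at -0.03 ± 0.14 (log2 fold change ± SE). Of 8 regulators of mitochondrial genes 6 were tested and 0 passed. Here 6 of 6 lay above 0, with a median of 0.20, where 45.4% of all genes tested lay below 0. Ppargc1b, a coactivator, had a KO mean of 1.94 ± 0.52 TPM beside a WT mean of 1.26 ± 0.43 TPM (SD over 7 libraries), a log2 fold change of 0.39 ± 0.16 (SE; limma, adjusted p = 0.408). Tfam, a transcription factor of the mitochondrial genome, averaged 36.4 ± 9.7 TPM and 30.6 ± 5.4 TPM (limma, adjusted p = 0.631). Nrf1 and Gabpa, activators of nuclear genes for mitochondrial proteins, had log2 fold changes of 0.25 and 0.18. As a description, r with the mean of the 9 enzymes over the 14 libraries was 0.80 for Ppargc1a, 0.75 for Esrra, an estrogen-related receptor, 0.24 for Ppargc1b, -0.15 for Gabpa, -0.53 for Nrf1 and -0.73 for Tfam. Over the 11 libraries of higher B-cell score it was 0.74, 0.65, 0.27, -0.07, -0.23 and -0.69 in the same order. Counted from the highest r, Ppargc1a ranked only 638 and Esrra 1166 over the 14 libraries, and 932 and 1563 over the 11. Ppargc1a was also low, at 0.62 to 1.71 TPM.

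Because the enzymes varied together, their promoters were searched for 6 motifs, on both strands, in the 250 bases before each transcription start in RefSeq (GRCm38.p6), where 8 of the 9 genes matched. The estrogen-related receptor element TCAAGGTCA was found in 0 of the 8 and in 0.387% of all 32851 promoter entries, and the ETS motif ACCGGAAGT in 0 and 0.804%. The cyclic AMP response element TGACGTCA was found for Ogdh and Mdh2 (1.55% of all entries), the NRF-1 motif GCGCATGCG for Ogdh at a downstream start (1.45%), the YY1 motif AAGATGGCG for Idh3g (0.606%), and the Sp1 motif GGGCGG for Cs, Ogdh, Dlst, Fh1 and Mdh2 (32.7%). The enzymes are counted per gene, with a match at any start, and the shares are per promoter entry. A gene with several starts has several entries, so the counts and shares are not on the same scale. A match is a description of letters, and no binding was measured. The 3 stretches that hold the longer motifs nearest the first start are printed to show where they lie, 5′ to 3′ on the gene's strand with the motif in capitals. They lie at chr5:135778497-135778554 (plus strand) for Mdh2, chr11:6291521-6291578 (plus strand) for Ogdh and chrX:73786994-73787052 (minus strand) for Idh3g, all upstream of the first annotated start.
Mdh2: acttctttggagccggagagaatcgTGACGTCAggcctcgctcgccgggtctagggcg
Ogdh: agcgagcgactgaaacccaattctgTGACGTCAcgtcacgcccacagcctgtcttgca
Idh3g: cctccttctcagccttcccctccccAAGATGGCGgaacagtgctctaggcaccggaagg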

How the data were processed

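The authors deposited 1 table with 56552 rows and a TPM column for each of the 14 libraries. Each deposited TPM column sums to the same fixed total over all rows. The table also holds the authors' mean TPM of each group, which was not used. The submitters' processing notes name Bowtie 0.12.2, mm8 and mm9 and give none of them a role. Not given in the sources used here are the program behind the TPM values, the annotation and the strand handling. Rows of the same symbol were summed. The 14719 genes that reached 1 TPM in 7 or more libraries entered the test, on log2(TPM + 1) with limma-trend (limma 3.58.1, R 4.3.3, robust empirical Bayes, 2-sided, Benjamini-Hochberg), so fold changes of low genes are understated. The limma test was run on data simulated with each gene's own spread (5 runs, 200 changed genes in each). It recovered on average 56.6% of 2-fold and 89.4% of 4-fold changes, with 7.8 false calls. Single values and ratios were tested by exact permutation (3432 arrangements, smallest p 0.000583). Samples were grouped by title, 1 library per mouse as the design text gives 7 mice a group. P-values measure the spread between these libraries. The genes, gene lists, ratios and tests were chosen with earlier results of these data known. Named were the 9 enzymes, up to 4 genes of smallest p per pathway list and the 8 genes most like the enzymes. Partners in a ratio (Dld, Sucla2), the succinate dehydrogenase subunits, Ogdhl, Ppargc1a and Esrra were named outside this rule, after their values were seen. The values of 1 other gene are not reported here. Count models and their normalizations were not used because TPM holds no counts. Alternatives were other pseudocounts, filters, scalings, covariates, library weights, a replicate block and libraries left out. Removing a length trend and leaving out 3 libraries were added after seeing the data.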

Additional observations from a re-analysis of the deposited data

Results flagged for a closer look

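Among 36 groups of 7 libraries checked (9 enzymes and 9 ratios in each genotype), 2 held a library far from the others, and chance gives about 1 in 20. Both were ratios in WT replicate 6: Idh3g to Idh3b at 2.16, where the other 6 WT libraries lay at 1.47 or less, and Mdh2 to Mdh1 at 1.55, where they lay at 1.06 or less. In that library Idh3g (274 TPM) and Mdh2 (397 TPM) were each the second highest of WT, while Idh3b (127 TPM) was the lowest.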

How the results depend on the processing

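In 30 alternatives 0 of the 9 enzymes passed in level, and their median log2 fold change lay between -0.25 (library weights) and 0.07 (adipocyte covariate). The count of all genes called, 3, was 1 without a filter and with rows as deposited, 19 (13 higher, 6 lower) with quantile normalization, 8 (3 higher, 5 lower) with median-ratio scaling, 6 (2 higher, 4 lower) without mitochondrially encoded genes, 823 (248 higher, 575 lower) with library weights, 18 (6 higher, 12 lower) with an adipocyte and 0 with a muscle covariate, 11 (5 higher, 6 lower) with the length trend removed, 0 without the 3 libraries of low B-cell score, and 0 to 6 with 1 library left out. Log2 fold changes turned positive for Cs, Idh3a, Idh3b and Dlst with quantile normalization (0.13, 0.032, 0.11 and 0.10) and with a B-cell covariate (0.051, 0.064, 0.049 and 0.053), for Cs, Idh3b and Dlst without mitochondrially encoded genes (0.016, 0.013 and 0.045) and with a muscle covariate (0.017, 0.0044 and 0.037), for Cs, Idh3a, Idh3b, Ogdh, Dlst and Fh1 with an adipocyte covariate (0.24, 0.24, 0.19, 0.071, 0.16 and 0.057), and for Dlst without the 3 libraries (0.0049) and with the length trend removed (0.0018). With 1 library left out they ran from -0.14 to 0.073 for Cs, -0.18 to 0.047 for Idh3a, -0.11 to 0.050 for Idh3b and -0.067 to 0.063 for Dlst. The cause of these shifts was not tested.

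The ratios Idh3a to Idh3b (-0.075 to 0.016) and Mdh2 to Mdh1 (-0.12 to 0.020, positive without WT replicate 6) also turned with 1 library left out. The 3 ratios that passed did so in each of those 14 settings. Whether shared replicate numbers (3 to 7) mark pairs could not be decided, and the main tests took the libraries as unpaired. Same-numbered WT and KO libraries had correlations of their deviations of 0.11, -0.67, 0.60, -0.18 and 0.80. These values also reflect tissue content: both libraries numbered 7 had a low B-cell score, and of those numbered 4 only the WT library did. With the replicate block over those 10 libraries 0 genes were called, as without the block, and 0 ratios passed, since 5 pairs cannot give a p below 0.0625. By Spearman's rho 0 correlations passed, against 6 by Pearson's r. Depth is unknown, so its limits cannot be stated.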
